A study of Rattus norvegicus with 10 samples.

Results

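Homeostatic microglia markers are genes that the resident macrophages of the brain express at rest, and 9 of them, Cx3cr1, P2ry12, P2ry13, Csf1r, Tmem119, Gpr34, Aif1, Ctss and Olfml3, were followed here in the hippocampus of rats 3 months after traumatic brain injury (TBI). They were chosen by name, with earlier results of these data known. Each was matched to 1 row of the deposited table of 32041 RNA records, so no choice between rows was needed. Messenger RNA had been sequenced from the left CA3 and dentate gyrus of adult male Sprague-Dawley rats that weighed 330 to 371 g at operation, with 5 rats in each of 2 groups. Both groups were anaesthetised and had a craniectomy of 5 mm over the left parietal lobe. TBI rats then received lateral fluid percussion, a pressure pulse onto the intact dura with a mean of 3.32 atm, and sham rats did not. Per the methods of the study the TBI rats had no EEG recording, so which of them had developed epilepsy is not known.

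Microglia survey the tissue with moving processes and keep this state through signals from their surroundings. Neurons display the chemokine Cx3cl1, which is read by Cx3cr1. Csf1 and Il34 act on the receptor tyrosine kinase Csf1r, on which the survival of microglia depends. P2ry12 and P2ry13 sense ADP, and P2ry12 steers processes towards damaged cells. In injured brain microglia are known to reduce several of these genes and to induce others, and the comparison here asks how their levels in injured tissue differed from sham.

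The promoters of microglial genes are often described with the binding letters of PU.1, the protein of Spi1, which is a lineage factor of macrophages. RefSeq promoter sequences (build GRCr8) were at hand for 6 of the 9 genes. The 60 bases before the start of 5 of them are shown to let the windows be compared, 5′ to 3′ on the strand of the gene, with the PU.1 core GAGGAA, or TTCCTC where it lies on the other strand, in capitals.

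Ctss, chr2:185775336-185775395, plus strand: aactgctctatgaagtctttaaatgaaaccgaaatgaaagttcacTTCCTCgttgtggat
Gpr34, chrX:11785837-11785896, minus strand: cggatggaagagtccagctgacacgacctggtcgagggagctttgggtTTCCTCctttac
Cx3cr1, chr8:128677067-128677126, minus strand: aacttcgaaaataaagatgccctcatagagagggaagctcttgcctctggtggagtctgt
P2ry13, chr2:145622785-145622844, minus strand: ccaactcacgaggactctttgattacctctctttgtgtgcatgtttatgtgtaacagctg
Olfml3, chr2:193935495-193935554, minus strand: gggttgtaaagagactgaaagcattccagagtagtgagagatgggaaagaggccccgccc

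The core was present in 3 of the 6 promoters within 250 bases before the start, and in 23.3% of all 33469 promoters of the same length. It began 15 bases before the start of Ctss, 12 bases before that of Gpr34, and 95 and 229 bases before that of Csf1r. The longer form GAGGAAGT, which contains the core, was present in the Ctss promoter only (1 of 6) and in 2.04% of all promoters. These are matches of letters, not measured binding sites.

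The libraries held 23425817 to 31671838 reads on RNA records, and levels are given as CPM, counts per 1000000 after TMM scaling, which adjusts library sizes for composition. Ribosomal RNA took 59.0% of the reads of sham rat 4 and 58.5% of those of sham rat 5, against 12.5% to 26.2% in the other 8 rats, and its share differed between the groups (two-sided exact permutation p = 0.0238). These 2 sham libraries were therefore the shallowest for messenger RNA, and the members' changes are given with and without them. Sham rat 3 and TBI rat 3 lay towards the other group in an earlier analysis of these data. Each of the 9 genes was detected in each of the 10 rats, with the lowest value 23 reads for P2ry13 in sham rat 4. Transcript lengths were not used, so values are compared between rats and not between genes.

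Group means were higher in TBI for 8 of the 9 genes, with log2 changes from -0.07 for P2ry13 to 0.34 for Aif1 and a median of 0.22, against a median of -0.01 over all 22431 rows tested. After Benjamini-Hochberg adjustment of edgeR's quasi-likelihood p-values none of the 9 was under 0.05, and the share of all rows under it was 0%. At an unadjusted p under 0.05 there was 1 of 9, Aif1, which was higher in TBI, while 4.89% of all rows were called higher and 3% lower by this threshold. DESeq2 also gave 1 member, and limma with voom and sample weights gave 0. Neither tool put a member under an adjusted 0.05, though DESeq2 put 3 of all rows there. For each of the 9 genes the values of the groups overlapped. Only 0.499% of all rows were higher in TBI without overlap, so this overlap is not particular to the 9 genes. In bulk tissue a different number of microglia and a different amount of RNA in each cell cannot be told apart, so the values describe the tissue.

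**Figure D1:**
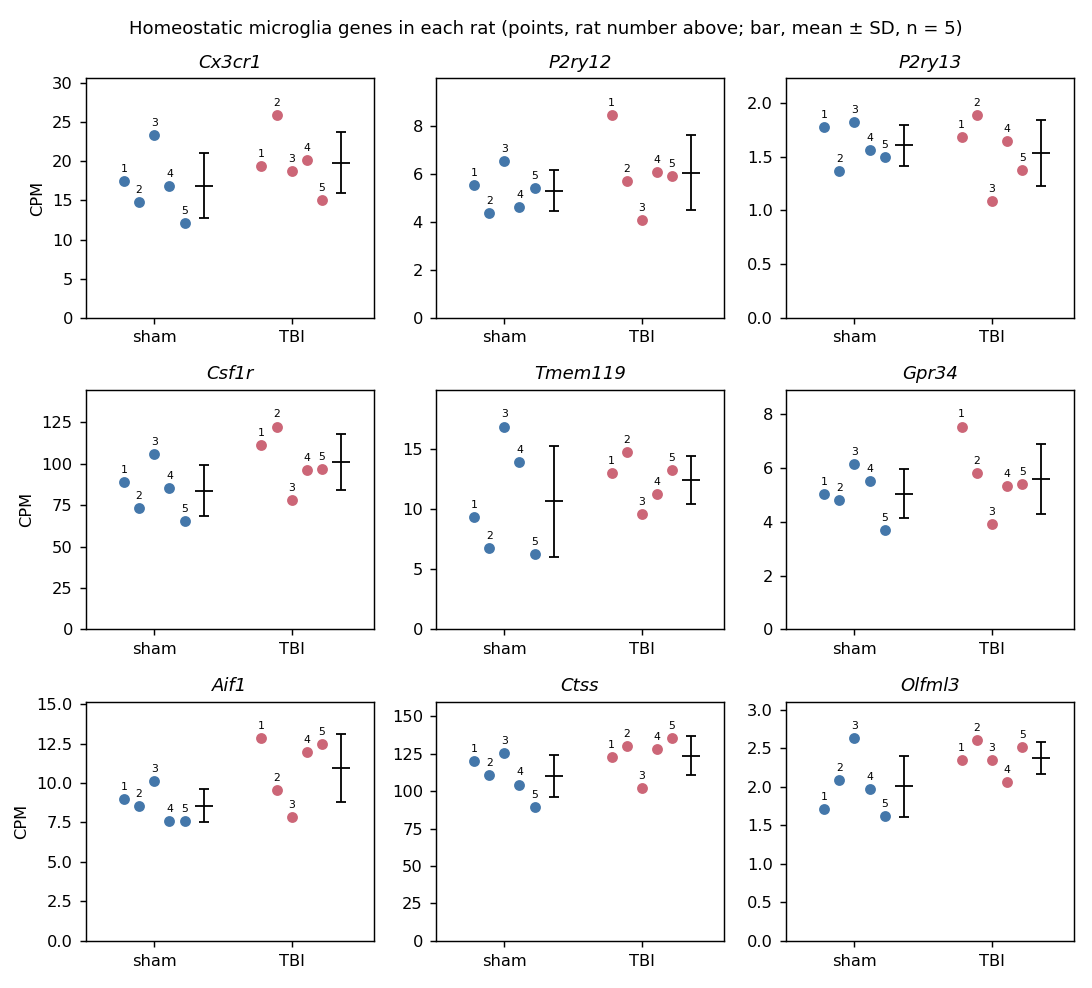
CPM (TMM-scaled counts, linear axes from 0) of the 9 genes in each rat, with the rat number above each point and the mean ± SD of 5 rats at the right of each group. The groups overlap in each panel, sham rat 3 is the highest sham rat in each, and TBI rat 3 is the lowest TBI rat in 7 of the 9.

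Aif1 encodes Iba1, a calcium- and actin-binding protein used to stain microglia in sections. Its level (RefSeq record NM_017196) was 8.96, 8.52, 10.1, 7.61 and 7.62 CPM in sham rats 1 to 5 and 12.8, 9.53, 7.86, 12.0 and 12.5 CPM in TBI rats 1 to 5. TBI rats 1, 4 and 5 lay above each sham rat, and TBI rat 3 lay within the sham range. The mean was 8.57 CPM ± 1.05 (SD, n = 5) in sham rats against 10.9 CPM ± 2.15 (SD, n = 5) after TBI. The log2 change was 0.34 (standard error 0.131, edgeR unadjusted p = 0.0180, adjusted p = 0.550). The 95% interval of this change, 0.07 to 0.62, corresponds to 1.05- to 1.53-fold. It was 0.23 (unadjusted p = 0.170) with the ribosomal RNA share as a covariate in edgeR and 0.25 (unadjusted p = 0.115) without sham rats 4 and 5. The call was also lost without TBI rat 1 (edgeR unadjusted p = 0.0560) and without TBI rat 5 (edgeR unadjusted p = 0.0519).

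Ctss is cathepsin S, a lysosomal protease that trims the invariant chain of MHC class II and can release Cx3cl1 from membranes. Ctss (NM_017320) was at 120.1, 111, 126, 104 and 89.4 CPM in the sham rats and at 123, 130.3, 102, 128 and 135 CPM in the TBI rats. TBI rats 2, 4 and 5 were above each sham rat, and TBI rat 3 was below 4 of the 5. The log2 change was 0.17 (standard error 0.0964), with a 95% interval of -0.03 to 0.37 (edgeR unadjusted p = 0.0982). With the ribosomal RNA share as a covariate it was 0.01 (edgeR unadjusted p = 0.917), and without sham rats 4 and 5 it was 0.06.

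Among the receptors, Csf1r came nearest to the unadjusted threshold. Csf1r (NM_001029901) had 89.0, 73.5, 106, 85.2 and 65.3 CPM in sham rats and 111, 123, 78.0, 96.4 and 97.1 CPM in TBI rats. TBI rats 1 and 2 exceeded each sham rat, and the mean was 83.8 CPM ± 15.5 (SD, n = 5) in sham and 101 CPM ± 16.9 (SD, n = 5) in TBI rats. The log2 change was 0.27 (standard error 0.131), with a 95% interval of -0.01 to 0.55 (edgeR unadjusted p = 0.0575). It passed an unadjusted 0.05 without sham rat 3 (0.37, edgeR unadjusted p = 0.00819) and without TBI rat 3 (0.35, edgeR unadjusted p = 0.0103). These were the highest sham rat and the lowest TBI rat for Csf1r, so leaving either out raises the change by construction. The change was smaller with the ribosomal RNA share as a covariate (0.16, edgeR unadjusted p = 0.353) and without sham rats 4 and 5 (0.18, edgeR unadjusted p = 0.222).

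Cx3cr1, the fractalkine receptor (NM_133534), was at 17.4, 14.7, 23.3, 16.9 and 12.1 CPM in sham rats and at 19.3, 25.9, 18.7, 20.2 and 15.0 CPM in TBI rats. Only TBI rat 2 lay above the sham range, and TBI rat 5 lay below 3 of the 5 sham rats. The log2 change was 0.22 (standard error 0.165), with a 95% interval of -0.13 to 0.58 (edgeR unadjusted p = 0.199). Without sham rat 3 it was 0.37 (edgeR unadjusted p = 0.0181). Sham rat 3 was the highest sham rat for Cx3cr1, so leaving it out raises the change by construction. The change was 0.08 with the ribosomal covariate (edgeR unadjusted p = 0.687), 0.10 without sham rats 4 and 5, 0.11 without TBI rat 2 and 0.13 without sham rat 5.

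P2ry12 (NM_022800) was measured at 5.56, 4.38, 6.53, 4.62 and 5.44 CPM in sham rats and at 8.47, 5.72, 4.08, 6.07 and 5.90 CPM in TBI rats. The highest and the lowest value of all 10 rats were both in the TBI group, in rats 1 and 3. The log2 change was 0.18 (standard error 0.163, edgeR unadjusted p = 0.284), and its 95% interval of -0.16 to 0.52 covers folds from 0.893 to 1.44. Gpr34, a receptor for lysophosphatidylserine, had a log2 change of 0.14 (95% interval -0.19 to 0.47), with 3.69 to 6.14 CPM in sham and 3.93 to 7.54 CPM in TBI rats. For both genes TBI rat 1 was the highest rat of all, and without it the log2 change was 0.03 for P2ry12 and 0.01 for Gpr34.

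P2ry13 was the only member with a lower mean in TBI, at 1.61 CPM ± 0.191 (SD, n = 5) in sham and 1.53 CPM ± 0.311 (SD, n = 5) in TBI rats. Its log2 change of -0.07 had a 95% interval of -0.45 to 0.30 (edgeR unadjusted p = 0.682). The gene (NM_001002853) rested on 23 to 71 reads per library. Counting error alone gives a coefficient of variation of 20.9% at 23 reads and 11.9% at 71 reads, and the observed coefficient was 11.9% among sham and 20.3% among TBI rats. P2ry14, another P2Y family receptor, had 0.325 to 0.884 CPM in sham and 0.363 to 0.506 CPM in TBI rats (log2 change -0.50, edgeR unadjusted p = 0.0829).

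Tmem119, a membrane protein that separates microglia from blood-derived macrophages, was the most variable member among sham rats. Tmem119 (NM_001107155) had 9.36, 6.76, 16.9, 13.9 and 6.31 CPM in sham rats and 13.0, 14.8, 9.59, 11.3 and 13.3 CPM in TBI rats. Each TBI rat lay inside the sham range, and the coefficient of variation was 43.4% in sham and 16.2% in TBI rats. Its log2 change of 0.22 thus had a wide 95% interval, from -0.38 to 0.81 (edgeR unadjusted p = 0.435). Olfml3 (NM_001107708), a secreted olfactomedin-domain protein, had a narrow range of 2.06 to 2.61 CPM in TBI rats, also inside the sham range of 1.62 to 2.63 CPM, with 26 to 98 reads per library. Its log2 change was 0.23 (standard error 0.156, edgeR unadjusted p = 0.159).

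**Figure D2:**
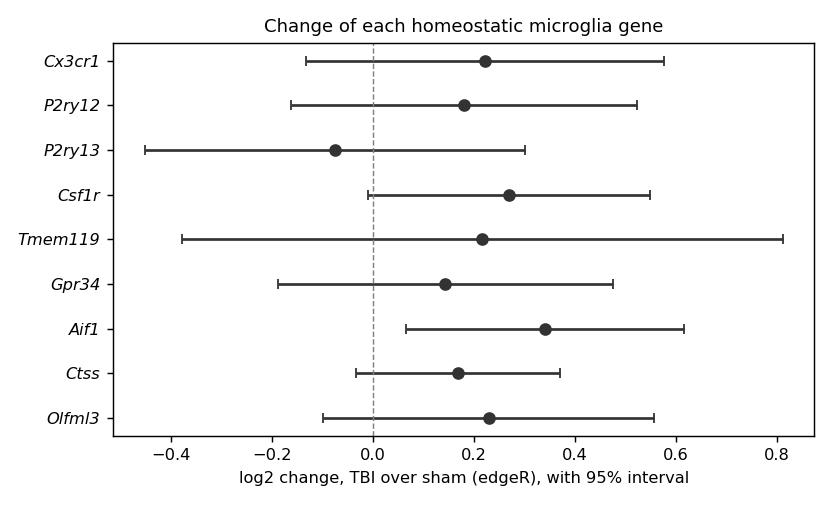
Log2 change of TBI over sham for each of the 9 genes (points) with the 95% interval from edgeR's quasi-likelihood fit (bars), and a dashed line at 0. The interval of Aif1 (0.07 to 0.62) lies above 0, and the other 8 cross it.

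Within a rat the 9 genes were largely high or low together. Levels were centred on the mean of each gene over the 10 rats on the log2 CPM scale and averaged over the 9 genes. This mean was 0.26 in sham rat 3 and -0.39 in sham rat 5, the extremes of the sham group. Sham rat 3 held the highest sham value in 9 of 9 genes, while it was the highest sham rat in 18.8% of all rows tested. Sham rat 5, rich in ribosomal RNA, held the lowest sham value in 6 of 9 genes and in 22.4% of all rows. Sham rat 4, with a like ribosomal share, held the lowest sham value in 1 of 9 genes and in 17.5% of all rows. In the TBI group rats 1 and 2 had means of 0.28 and 0.25, whereas TBI rat 3 had -0.23 and the lowest TBI value in 7 of 9 genes, against 16.9% of all rows. Members of a set that vary together are not independent, so 9 of 9 and 7 of 9 each describe 1 rat.

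**Figure D3:**
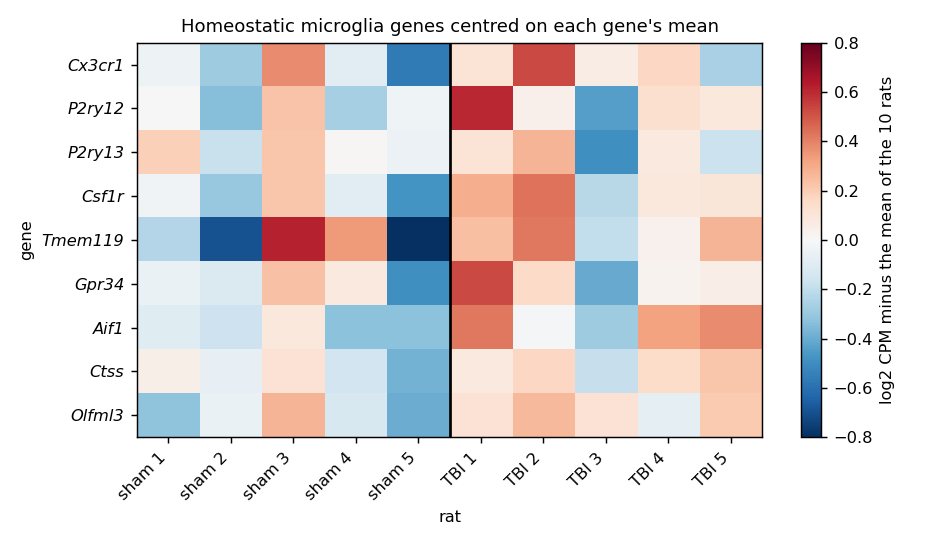
Log2 CPM of each gene (vertical) in each rat (horizontal) minus the mean of the gene over the 10 rats, in colour from -0.8 to 0.8, with a line between the groups. The column of sham rat 3 is above the mean in 9 of 9 genes, as is that of TBI rat 1, and the columns of sham rats 2 and 5 are below it in each gene.

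Leaving out sham rat 3 raised the median log2 change of the members from 0.22 to 0.36 and the number with an unadjusted p under 0.05 from 1 to 6 in edgeR, with 7.07% of all rows then called higher. The added genes were Csf1r, Cx3cr1, Tmem119, Ctss and Olfml3. Sham rat 3 was the highest sham rat in 9 of 9 genes, so leaving it out raises these changes by construction. Leaving out TBI rat 3 gave 3 genes, Aif1, Csf1r and Ctss, with 5.92% of all rows called higher. TBI rat 3 was the lowest TBI rat in each of these 3 genes, so the same holds for it. Leaving out the 2 sham rats rich in ribosomal RNA gave 0 genes and a median of 0.14, with 3.32% of all rows called higher. The covariate for the ribosomal share gave 0 genes and a median of 0.09, with 2.45% of all rows called higher. Among members not given above, the log2 change without these 2 rats was 0.18 for Tmem119, 0.15 for Olfml3, 0.14 for P2ry12, 0.08 for Gpr34 and -0.11 for P2ry13. With the covariate it was 0.15 for Tmem119, 0.09 for Olfml3, 0.18 for P2ry12, 0.09 for Gpr34 and -0.10 for P2ry13. The direction of P2ry12, Csf1r, Tmem119, Gpr34, Cx3cr1, Aif1, Ctss and Olfml3 stayed upward in each of these fits. The part of the ribosomal RNA share in these differences was not tested beyond these fits.

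Proportions within a library do not depend on how libraries are scaled. P2ry12 counted 4.63, 3.96, 5.20, 4.43 and 6.08 reads per 100 reads of Ctss in sham rats and 6.90, 4.39, 4.00, 4.73 and 4.36 in TBI rats. The means of 4.86 ± 0.815 (SD, n = 5) and 4.88 ± 1.16 (SD, n = 5) differed by less than the spread between rats, and the log2 ratio differed by -0.01 (two-sided exact permutation p = 0.952, smallest possible p 0.00794). TBI rat 1 and sham rat 5 had the highest ratios. As shares of the reads of the 9 genes, 8 of the 9 overlapped between the groups. The exception, noticed after the values were seen, was P2ry13, at 0.602% to 0.777% in sham and 0.476% to 0.592% in TBI rats. By the same measure 0.415% of all rows were lower in TBI without overlap. Rows higher without overlap are not in this share, although the 9 genes were looked at in both directions. The nearest rats were sham rat 2, with 38 of 6313 reads, and TBI rat 2, with 71 of 11991. The exact binomial 95% intervals of the P2ry13 shares, which cover counting error only, reached from 0.498% to 1.15% in sham rat 5 and from 0.463% to 0.746% in TBI rat 2. These intervals overlap, but overlap is not a test, and single rats were not tested against each other.

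**Figure D4:**
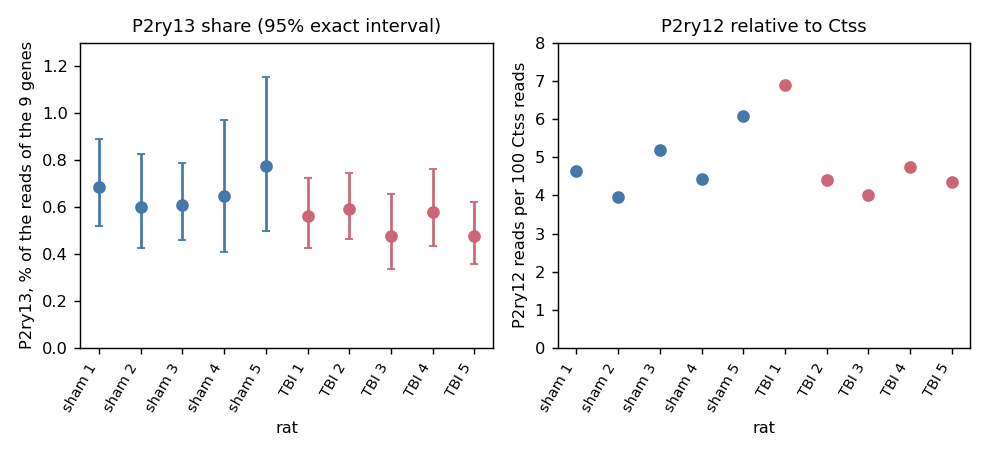
Left, P2ry13 reads as a percentage of the reads of the 9 genes in each rat, with exact 95% binomial intervals for counting error; right, P2ry12 reads per 100 Ctss reads in each rat (sham blue, TBI red, both axes from 0). The P2ry13 points of TBI rats, at most 0.592%, lie below the sham points, at least 0.602%, with overlapping intervals, and the ratio of P2ry12 to Ctss overlaps between the groups.

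The genes whose level over the 10 rats was most like the mean of the 9 members were Adgre1 (Pearson r = 0.965), Pld4 (0.960), Vsir (0.957), Dock8 (0.955) and Ifi30 (0.954), out of 9790 symbols with at least 2 CPM. Of the 9790, 58 had r above 0.9. The points of each correlation are the same 10 libraries, and the genes were picked for their likeness, so no test is given. Adgre1, the macrophage antigen F4/80, had a log2 change of 0.52 (standard error 0.285). Among the members, Csf1r was most like the mean of the other 8 (r = 0.969) and P2ry13 least (r = 0.559).

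The partners of these receptors and enzymes were taken from a fixed list of 12 genes, of which 11 were tested. With an unadjusted p under 0.05 there were 3 higher in TBI and 0 lower, where 4.89% of all rows were higher, and 0 passed the adjusted threshold of edgeR. The 3 became 1 with the ribosomal covariate (2.45% of all rows higher) and 1 without sham rats 4 and 5 (3.32%). The median log2 change of the list, 0.20, was 0.15 and 0.17 in these fits. The ligands of the receptors did not pass. Cx3cl1 was at 305 CPM ± 12.4 (SD, n = 5) in sham against 301 CPM ± 25.3 (SD, n = 5) after TBI, with a log2 change of -0.02. Il34 was at 46.5 CPM ± 11.8 (SD, n = 5) and 46.8 CPM ± 6.12 (SD, n = 5). Csf1 had a log2 change of 0.23 (standard error 0.114, edgeR unadjusted p = 0.0545). Higher in TBI were Tgfb1, a cytokine on which the homeostatic state depends (log2 change 0.51, edgeR unadjusted p = 0.00360), Cd74, the invariant chain cut by cathepsin S (0.89, unadjusted p = 0.0109), and Cst3, the cathepsin inhibitor cystatin C (0.29, unadjusted p = 0.0162). Cd74 was at 17.3 to 36.6 CPM in sham and 25.9 to 62.8 CPM in TBI rats, with 4 of 5 TBI rats above each sham rat.

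Of 9 microglial transcription factors tested, 3 were higher with an unadjusted p under 0.05 and 0 lower, where 4.89% of all rows were higher. With the ribosomal covariate 0 were higher and 1 lower (2.45% of all rows higher). Without sham rats 4 and 5 there were 0 in either direction (3.32% of all rows higher). The median log2 change of the list, 0.24, was 0.18 and 0.22 in these fits. Spi1 had 4.14 CPM ± 1.01 (SD, n = 5) in sham against 5.60 CPM ± 0.922 (SD, n = 5) after TBI, with a log2 change of 0.43 (edgeR unadjusted p = 0.0139). Irf8, its partner in macrophages, had 0.46 (unadjusted p = 0.0461), and Sall1, a factor of microglial identity, had 0.26 (unadjusted p = 0.0288).

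Of 38 other genes enriched in microglia, 15 were higher with an unadjusted p under 0.05 and 0 lower, where 4.89% of all rows were higher. The median log2 change of the 38 was 0.27. This count was 1 with the ribosomal covariate (2.45% of all rows higher) and 1 without sham rats 4 and 5 (3.32%). It was 20 without sham rat 3 (7.07%), where 6 of the 9 homeostatic markers passed. In these 3 fits the median of the list was 0.17, 0.20 and 0.39. The difference between lists was not tested, and the order of their shares turned when sham rat 3 was left out. Itgb2, the beta chain of leukocyte integrins, was at 9.31 to 16.8 CPM in sham and 13.5 to 19.5 CPM in TBI rats (log2 change 0.41, edgeR unadjusted p = 0.00960). Laptm5, a lysosomal membrane protein, had a log2 change of 0.35 and Vsir, an immune checkpoint receptor, 0.34. Itgam, the alpha chain that pairs with Itgb2, had a log2 change of -0.01 (standard error 0.168), and Tyrobp, the adaptor of Trem2, had 0.62 (edgeR unadjusted p = 0.0135).

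Of 16 genes induced in microglia near damage, 10 were higher with an unadjusted p under 0.05 and 0 lower, where 4.89% of all rows were higher. Their median log2 change was 0.40. The 10 became 4 with the ribosomal covariate (2.45% of all rows higher), 5 without sham rats 4 and 5 (3.32%), and 11 without sham rat 3 (7.07%). In these 3 fits the median of the list was 0.31, 0.35 and 0.48. Without both sham rat 3 and TBI rat 3 the count was 12 of 16, beside 7 of the 9 homeostatic markers (7.58% of all rows higher). These 2 rats were chosen for lying towards the other group, so leaving them out widens the difference by construction. The 4 with the smallest p were Cd63 (log2 change 0.40), Apoe (0.32), Cd9 (0.41) and Axl (0.39), with edgeR unadjusted p-values from 0.00146 to 0.00476. Cd63, Apoe and Cd9 are also expressed outside microglia. Lgals3, galectin-3, had a log2 change of 1.91 (standard error 0.536), at 0.624 to 2.05 CPM in sham and 0.968 to 7.39 CPM in TBI rats. Over the 4 lists of partners, factors, other microglial genes and damage-associated genes, 31 of 74 passed the unadjusted threshold. All 31 were higher in TBI, where 4.89% of all rows were called higher. The count of 31 became 7 with the ribosomal RNA share as a covariate, of which 6 were higher (2.45% of all rows higher). It became 7 without sham rats 4 and 5 (3.32%).

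**Figure D5:**
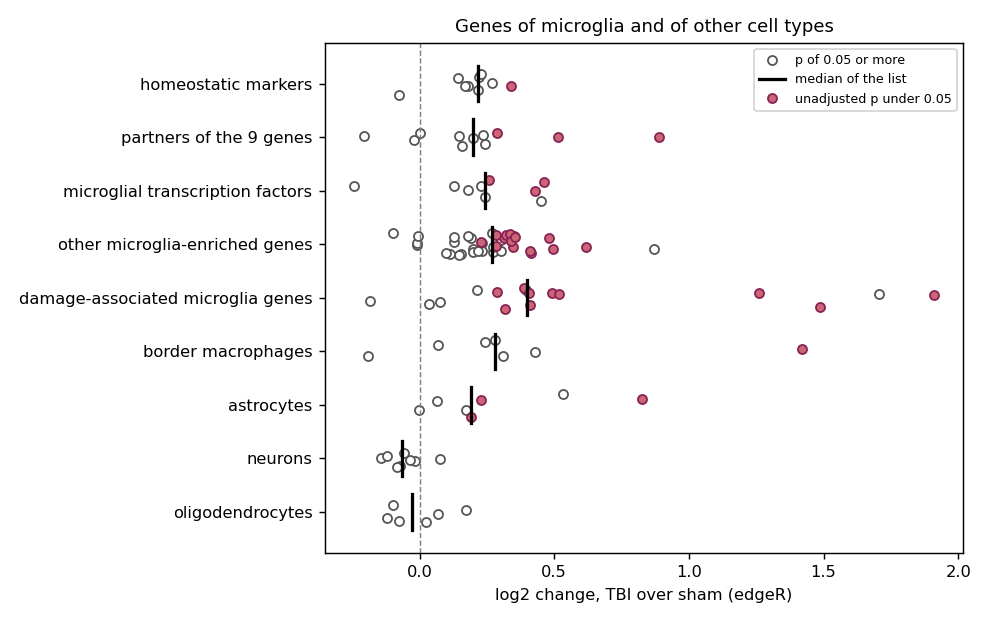
Log2 change of TBI over sham for the tested genes of each list (points, shifted at random in height), filled where edgeR's unadjusted p was under 0.05, with the median of each list as a bar. Filled points number 1 of 9 homeostatic markers, 15 of 38 other microglia-enriched genes and 10 of 16 damage-associated genes. They number 3 of 7 astrocyte, 1 of 7 border macrophage, 0 of 8 neuronal and 0 of 6 oligodendrocyte markers. The medians are 0.22 for homeostatic, 0.28 for border macrophage and 0.19 for astrocyte markers, and -0.07 and -0.03 for neuronal and oligodendrocyte markers.

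Markers of other cells were read beside these values. In this paragraph a marker counted as higher had an edgeR unadjusted p under 0.05, as had 4.89% of all rows. Of 7 markers of border macrophages tested, which share Csf1r, Cx3cr1, Aif1 and Ctss with microglia, 1 was higher, and their summed level was 3.12 to 7.61 CPM in sham and 5.13 to 6.79 CPM in TBI rats. The 1 was Pf4, with 2 to 7 reads in sham and 10 to 23 reads in TBI libraries (log2 change 1.42, edgeR unadjusted p = 0.000894). The list of monocyte, granulocyte and lymphocyte markers summed to 1.04 to 2.03 CPM in sham and 0.759 to 3.54 CPM in TBI rats, and 9 of its 12 rows held a library with no read, among them Ccr2, Cd3d, Cd3g and Cd79b, with Ly6c at 0 in each. Of its 3 tested rows Cd3e, a chain of the T cell receptor complex, had 1 to 11 reads in sham and 2 to 94 reads in TBI libraries, up to 2.50 CPM (log2 change 2.06, edgeR unadjusted p = 0.0676). The other two, Plac8 and Cd2, had log2 changes of -0.77 and -0.29. Among 7 astrocyte markers 3 were higher in TBI, led by Gfap, the intermediate filament of reactive astrocytes (log2 change 0.82, edgeR unadjusted p = 0.0123). The 3 became 0 with the ribosomal covariate (2.45% of all rows higher) and 0 without sham rats 4 and 5 (3.32%). The median log2 change of the astrocyte list, 0.191, was 0.185 and 0.169 in these fits. All 4 erythrocyte markers tested had log2 changes above 0, and 2 of them passed the unadjusted threshold, with Alas2 at 0.51 (edgeR unadjusted p = 0.00788). Neuronal markers, 8 genes, and oligodendrocyte markers, 6 genes, had none past the unadjusted threshold, and neither had 6 endothelial markers. Of 5 choroid plexus markers, 1 was higher, the folate receptor Folr1 (log2 change 0.81, edgeR unadjusted p = 0.0261). The 3 tested dentate granule markers had log2 changes from -0.30 to -0.25, and their list summed to 54.5 to 190.0 CPM in sham and 74.8 to 185 CPM in TBI rats. The part of these cells in the values of the 9 genes was not tested.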

How the data were processed

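The authors deposited for each rat the raw counts on each RefSeq RNA record, with no normalization or pooling. Per the study's methods, reads of 36 bases were aligned with BWA to RN4 and counted over Ensembl transcripts. The rows are RefSeq records, and this difference was not settled. Names came from a RefSeq table of GRCr8, which named 54.2% of 32041 records. Use of strand in counting is not given in the sources used here.

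Rows with at least 44 counts in total (30th percentile, as in the study) were tested with edgeR 4.0.16 in R 4.3.3, by the quasi-likelihood test with robust estimation, TMM scaling and the groups as the only term. Standard errors are the log2 change over the root of F, and log2 CPM used a prior count of 2. Alternatives used DESeq2 1.42.0 and limma 3.58.1 with voom and sample weights, which give more variable libraries less weight. In counts simulated for TBI against sham over 22431 rows, an adjusted p under 0.05 was found for 163 of 200 altered rows at a log2 change of 1 and for 70 of 200 at 0.5. With a change of 0.5, 161 of 200 had an unadjusted p under 0.05.

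The members and lists were chosen with earlier results of these data known, so no p was adjusted over a list. All 9 members are described. From each list genes with an unadjusted p under 0.05 were named by smallest p, up to 4, and 1 to 3 defining genes for their level. Some genes that the rule names are not reported here. Itgam, Tyrobp, Lgals3, P2ry14, Cd3e, Plac8, Cd2 and the share of P2ry13 were picked out after their values were seen. The study's methods name 3 controls for these libraries and the labels 5, and the labels were followed. Rats are separate animals per the labels, numbered in the order of the samples. No library copied another (chi-square per degree of freedom at least 6.26 over 45 pairs).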

Additional observations from a re-analysis of the deposited data

How the results depend on the processing

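No paired analysis was possible because the labels number the rats without pairing them. The number of members with an unadjusted p under 0.05, 1 as reported, was 2 with edgeR's exact test and with its likelihood ratio test. With limma, voom and sample weights it was 0. It was 0 without sham rats 4 and 5, with 3.32% of all rows higher, and 0 with the ribosomal RNA covariate, with 2.45% higher. It was 6 with scaling by total counts, which counts ribosomal RNA as library size, called 16.8% of all rows higher and shifted the median of all rows to 0.50 (log2), and 3 with ribosomal rows left out and scaling by total counts, chosen after seeing the data, which called 12.5% of all rows higher and moved that median to 0.14. It was 7 without sham rat 3 and TBI rat 3, with 7.58% of all rows higher. These 2 rats were chosen for lying towards the other group, so leaving them out widens the difference by construction. It ranged from 0 to 6 when each rat was left out, with 0 without TBI rat 1 or 5, 3 without TBI rat 3 and 6 without sham rat 3. Of all rows, 4.18% were higher without TBI rat 1, 4.14% without TBI rat 5, 5.92% without TBI rat 3 and 7.07% without sham rat 3. The number past an adjusted p of 0.05 was 0 in each fit except 1 without sham rat 3 and TBI rat 3, where Aif1 had an edgeR adjusted p of 0.0448. The median log2 change of the members was 0.68 with scaling by total counts and from 0.13 to 0.36 when each rat was left out. P2ry13 changed sign, to 0.43 with scaling by total counts, 0.0680 with that scaling outside ribosomal rows, 0.0786 without sham rat 3 and TBI rat 3 and 0.0251 without TBI rat 3, with a range from -0.163 to 0.0251 when each rat was left out, and had no p under 0.05 in any fit. The log2 ratio of P2ry12 to Ctss, -0.01, was 0.0652 without sham rats 4 and 5, 0.0817 without sham rat 3 and TBI rat 3 and from -0.142 to 0.0750 when each rat was left out, with no exact permutation p under 0.317 in the latter. The count of 31 rows in the other microglia lists was 51 with scaling by total counts, 7 with the ribosomal RNA covariate, 7 without sham rats 4 and 5 and from 19 to 41 when each rat was left out, with 20 without sham rat 2, sham rat 4, TBI rat 2 or TBI rat 5 and 19 without sham rat 5. What causes the shifts in fits of all 10 rats was not tested.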
